A study of Mus musculus with 8 samples.

Results

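Collagens are the proteins that form the fibrils, networks and anchoring structures of the extracellular matrix. Every collagen molecule is a triple helix of alpha chains, which are encoded by the same gene or by different genes. The genes described here are the collagen genes of the mouse other than Col4a3, Col4a4 and Col4a5, the chains of the mature glomerular basement membrane. They were chosen by symbol from the deposited expression table. The rule used no measured value, but earlier results of these data were known when the genes were chosen. The choice gave 41 of the 47729 genes in the table: 11 fibrillar collagens, 5 collagens of basement membranes and 25 others.

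RNA of the whole kidney was sequenced at postnatal day 8, in 4 libraries of each of 2 groups. The knockout group was Six2Cre+ KCTD1 fl/fl, that is, it carried a floxed Kctd1 gene and a Cre recombinase driven from Six2, which is active in progenitors of the nephron epithelium. The other group came from control littermates, labelled wildtype, whose alleles are not named further in the sources used here. Stroma, vessels and collecting duct lie outside the Six2 lineage, and whole-kidney RNA contains all of them.

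In the kidney, fibrillar collagens of types I and III are made chiefly by interstitial stromal cells and surround tubules and vessels. The type IV chains Col4a1 and Col4a2 assemble into the network that underlies epithelium and endothelium, with the proteoglycan-type collagens XV and XVIII bound to it. Type VI collagen forms beaded microfilaments between basement membrane and interstitium from the chains Col6a1, Col6a2 and Col6a3. Chains are hydroxylated and glycosylated in the endoplasmic reticulum, trimmed outside the cell and cross-linked by lysyl oxidases. Kctd1 encodes a BTB domain protein known as a repressor of AP-2 transcription factors.

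Several chain genes lie side by side in the genome. Col4a1 on the minus strand and Col4a2 on the plus strand of chromosome 8 start head to head, and their annotated 5′ ends share 22 bases. The stretch across that overlap (RefSeq, GRCm38.p6, plus strand, chr8:11312801-11312830) is shown because these genes encode the chains of 1 molecule and were measured at a steady ratio; capitals mark the shared bases.
Col4a1-Col4a2: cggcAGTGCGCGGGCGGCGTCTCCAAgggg
The type VI chains are arranged differently. Col6a1 (chromosome 10, 76708792 to 76726168) and Col6a2 (chromosome 10, 76595762 to 76623630) lie 85161 bases apart on the minus strand, whereas Col6a3 lies on chromosome 1 from 90765923 to 90843971 (GENCODE, GRCm38, minus strand). Of 6 chain ratios compared, only that of Col6a3 to Col6a1 separated the groups. It did not pass adjustment over the ratios (exact permutation test, adjusted p of 0.171). For that separation, the sequences before the starts of Col6a1, Col6a2 and Col6a3 are shown. They are chr10:76726169-76726294 for Col6a1, chr10:76623631-76623880 for Col6a2 and chr1:90843972-90844221 for Col6a3, each read on the minus strand and ending at the base before the annotated gene. Capitals mark a GC box (GGGCGG on either strand).
Col6a1: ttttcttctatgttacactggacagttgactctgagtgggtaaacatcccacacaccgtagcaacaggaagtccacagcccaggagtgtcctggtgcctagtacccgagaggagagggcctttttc
Col6a2: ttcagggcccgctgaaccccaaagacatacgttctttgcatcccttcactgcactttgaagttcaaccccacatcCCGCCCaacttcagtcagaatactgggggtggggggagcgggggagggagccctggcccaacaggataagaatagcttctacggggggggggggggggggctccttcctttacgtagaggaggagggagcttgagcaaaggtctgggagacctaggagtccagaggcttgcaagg
Col6a3: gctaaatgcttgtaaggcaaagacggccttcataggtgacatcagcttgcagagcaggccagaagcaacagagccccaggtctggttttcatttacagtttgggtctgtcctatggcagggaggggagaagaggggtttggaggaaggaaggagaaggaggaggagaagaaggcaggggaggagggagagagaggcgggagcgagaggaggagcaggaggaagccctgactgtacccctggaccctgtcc

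The promoter table of RefSeq held windows for 33 of the 41 collagens, 36 windows in all. In the 250 bases before the start, searched on both strands, the AP-2 core GCCNNNGGC matched in 6 of 36 collagen windows (16.7%) and in 13.7% of all 32851 windows. The 6 genes were Col4a1, Col4a2, Col5a1, Col6a5, Col9a1 and Col16a1, and none of the type VI sequences printed above holds the motif. The GC box GGGCGG matched in 58.3% of collagen windows and 32.7% of all windows. CCAAT matched in 33.3% and 33.8%, and TATAAA in 13.9% and 12.4%. These motifs can overlap one another, and a match is a stretch of letters, not a measured binding site.

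The libraries held 14457760 to 20741076 counts, and collagens took 1.23 to 1.35% of the counts in every library. Kctd1 itself, which checks the labels, ranged from 22.4 to 25.8 CPM (counts relative to library size, scaled with TMM factors) in knockout and from 28.9 to 32.6 CPM in wildtype. All knockout libraries were below all wildtype libraries, with a log2 fold change of -0.38 ± 0.09 (SE) and an adjusted p of 0.279 by edgeR's quasi-likelihood test (Benjamini-Hochberg) and 0.0158 by DESeq2. Xist, a transcript of the inactive X chromosome, was read 81994 times in library knockout 2 and 101295 times in library wildtype 3, but no more than 151 times elsewhere, so each group held 1 library high in this transcript. Knockout 2 also had 5.39% of its counts on the ribosomal row Rn18s-rs5, the highest share of the 8 libraries. The labels do not say whether the libraries came from separate animals, and p-values here reflect the spread of these libraries, which may be technical.

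The young kidney expressed a few collagens strongly and most of them weakly. By TPM (the share of transcripts, a level per transcript length), Col3a1 stood highest with a mean of 523 over the 8 libraries. It was followed by Col1a1 at 237, Col4a1 at 211, Col1a2 at 172, Col15a1 at 147 and Col4a2 at 142 TPM. These 6 genes, 3 fibrillar and 3 of basement membranes, made up 76.7% of the summed TPM of the collagens with a mean of at least 1 CPM. The next levels were those of Col26a1 at 72.6, Col18a1 at 64.9, Col16a1 at 62.2 and Col6a3 at 46.9 TPM. Col6a1 and Col6a2 were at 29.4 and 28.7 TPM. Among the highest 14, the ranges over libraries of neighbours in this order separated only between Col3a1 and Col1a1, between Col4a2 and Col26a1 and between Col6a3 and Col6a1. All other neighbours overlapped, so that their order is not resolved by these libraries.

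**Figure D1:**
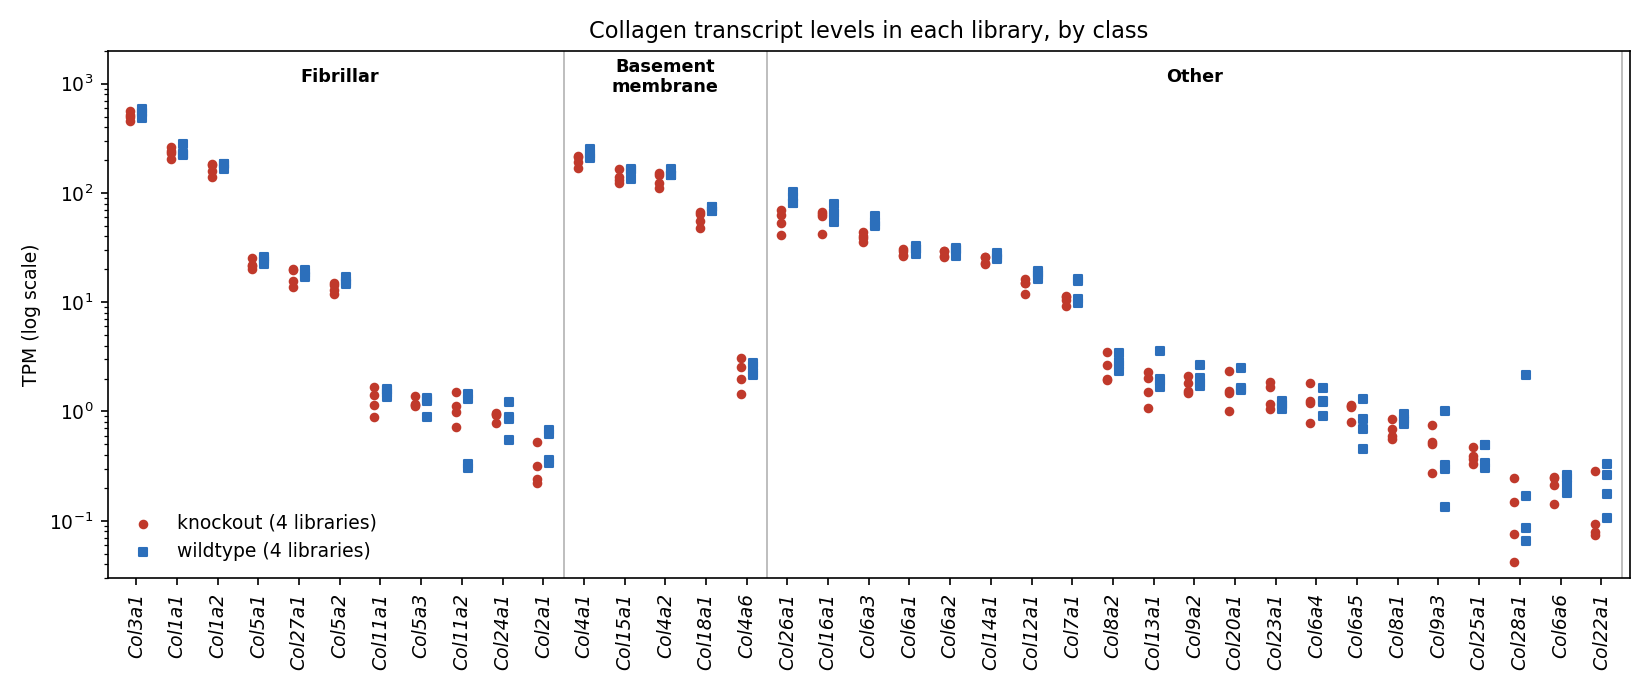
TPM of the 37 collagens with a mean of at least 1 CPM (log axis, points are single libraries, knockout circles and wildtype squares), ordered within the fibrillar, basement membrane and other classes. Col3a1, Col1a1 and Col1a2 stand apart from the remaining fibrillar collagens, and the knockout points of Col6a3 and Col26a1 lie below their wildtype points. In CPM the groups of Col26a1 overlap, with knockout 2 at 109 and wildtype 1 at 101 CPM. A wildtype point of Col28a1 lies far above the other libraries.

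The order of levels depends on which transcripts were taken to carry the reads. A transcript length can be read from the ratio of counts to TPM, set to 100% at the median of 1129 genes with a single annotated transcript, whose quartiles were 93.6 and 103%. Of 29 collagens with enough counts, 12 had an implied length of at least 80% of their longest annotated transcript. Among these, Col4a1 stood at 92.2%, Col4a2 at 87.5%, Col1a2 at 102% and Col6a1 at 104%. In contrast, 9 collagens lay under 50%. Col3a1 had an implied length of 2.15 kb against 5.56 kb for its longest transcript (38.7%), Col6a3 2.53 kb against 10.1 kb (25.1%) and Col26a1 0.698 kb against 2.78 kb (25.1%). For these genes the deposited TPM counts short transcripts, and their level per longest transcript is lower. By CPM per kb of the longest transcript the order became Col3a1 (381), Col4a1 (366), Col1a2 (330), Col1a1 (307) and Col4a2 (233), and Col6a3 moved to position 16 with 22.1. Up to 1 factor per library, the ratio of counts to TPM of a gene was the same in all libraries, so the files hold no separate information on transcript usage in knockout and wildtype.

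**Figure D2:**
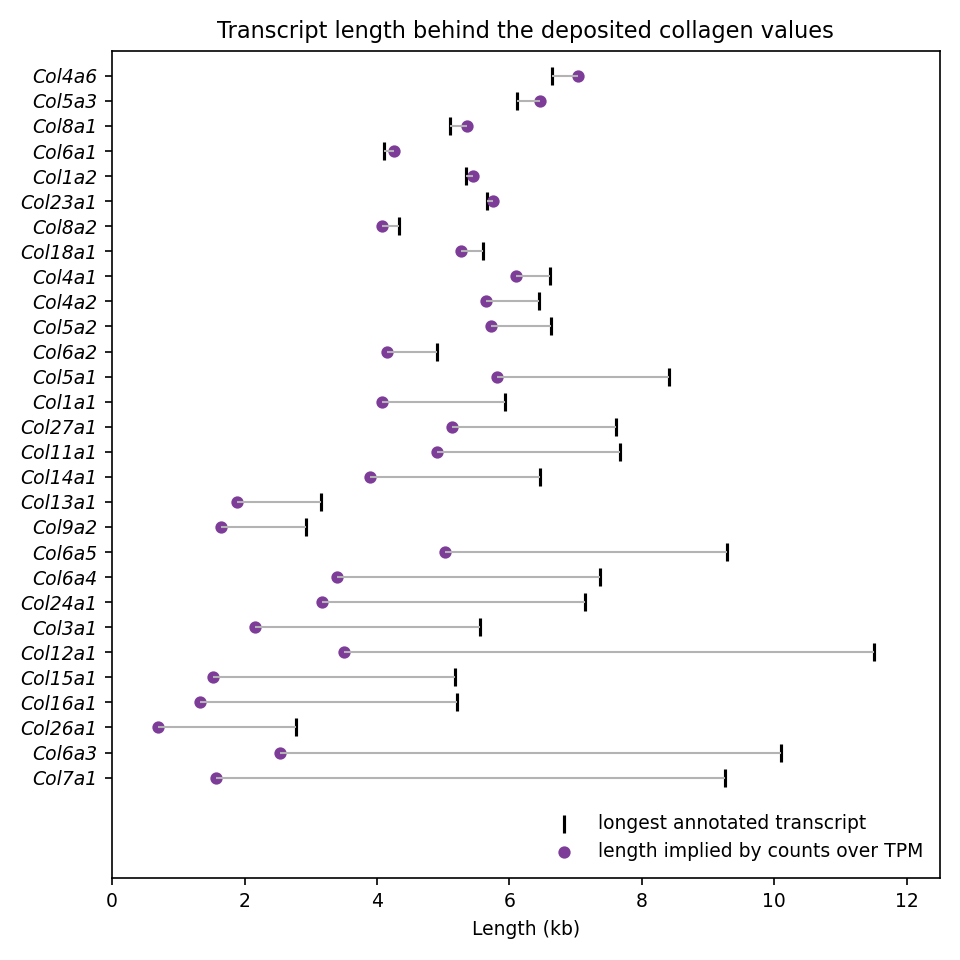
Length implied by the ratio of counts to TPM (purple points, kb) and length of the longest annotated transcript (black ticks, kb) for 29 collagens, joined by grey lines. Col6a1, Col1a2 and Col23a1 lie at their longest transcript, while Col7a1, Col6a3, Col26a1, Col16a1 and Col15a1 lie far to its left.

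The comparison of knockout and wildtype asked which collagen transcripts differed in kidneys whose nephron progenitors had expressed the Cre. No collagen passed the threshold: 0 of 38 tested genes had an adjusted p under 0.05 by edgeR's quasi-likelihood test (Benjamini-Hochberg), where 15 of all 18548 genes did (0.0809%). With DESeq2 the count was also 0, beside 0.788% of all genes. At an unadjusted p under 0.05 there were 3 collagens, Col23a1 with a higher and Col6a3 and Col26a1 with a lower estimate, beside 6.18% of all genes. The libraries of both groups did not overlap for 2 of 38 collagens, Col6a3 and Col23a1, beside 4.03% of all genes. Such shares are near those of the transcriptome as a whole.

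Of the 37 collagens with a mean of at least 1 CPM, 18 had a positive and 19 a negative estimate, with a median log2 fold change of -0.01. The median over all genes tested was 0.00. For 26 of the 37 the estimate lay within 0.2 of no difference. Summed over these collagens, the knockout libraries held 12718 ± 703 CPM and the wildtype libraries held 12699 ± 539 CPM (SD, n = 4 each), and their ranges overlapped. In whole-kidney RNA, fewer cells of a type and less RNA per cell cannot be told apart.

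**Figure D3:**
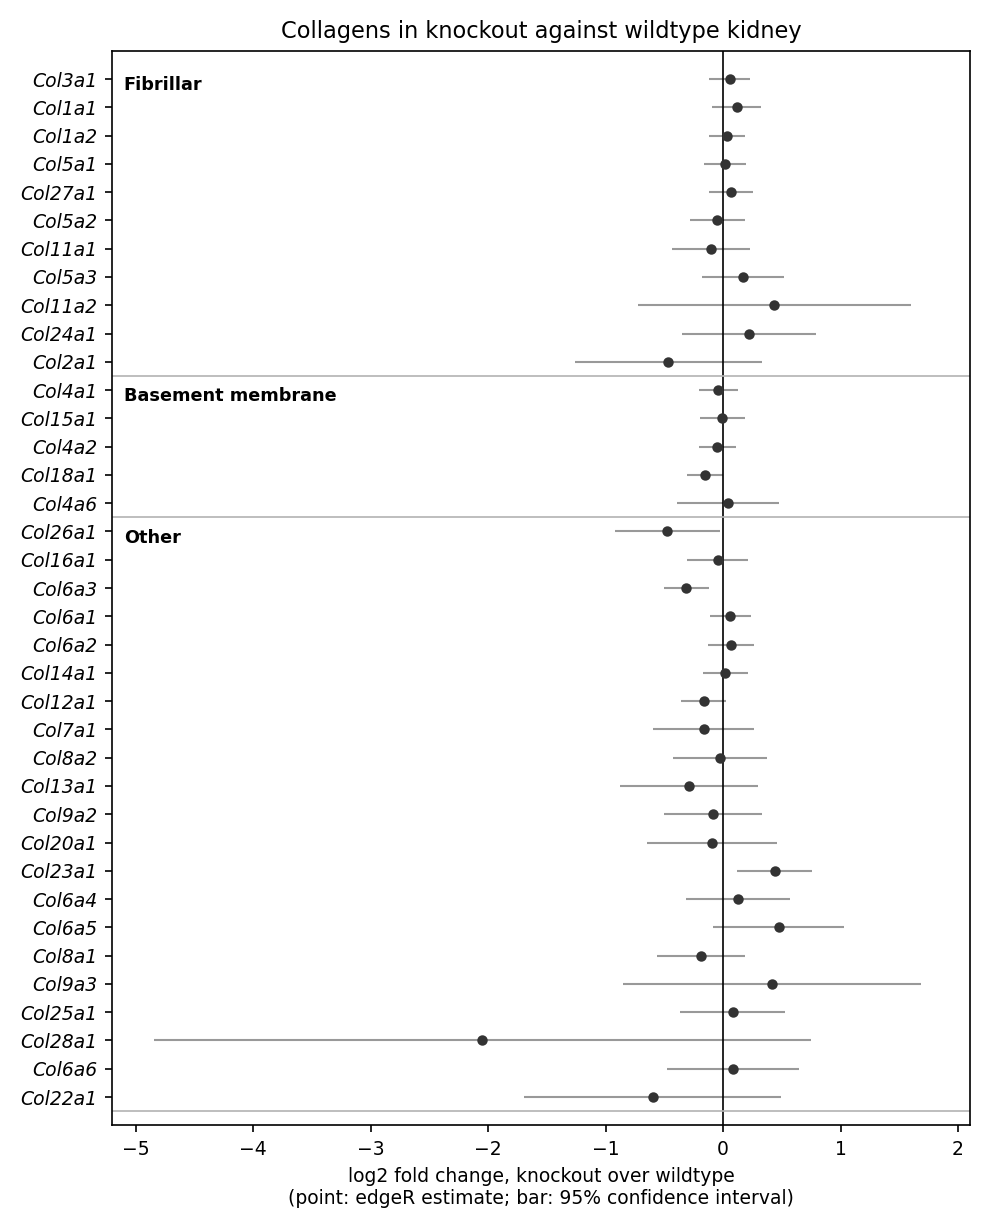
log2 fold change of knockout over wildtype for 37 collagens by class (points, edgeR estimates; bars, 95% confidence intervals; the vertical line marks no difference). The abundant fibrillar and basement membrane chains have narrow intervals that include 0. The intervals of Col6a3, Col26a1 and Col23a1 do not include 0, though none of these passed the adjusted threshold, and Col28a1 has the widest interval.

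The fibrillar collagens had a median log2 fold change of 0.06, with 8 positive and 3 negative estimates among 11. Without knockout 2 the median was 0.0069. Their summed level was 6470 ± 443 CPM in knockout against 6192 ± 436 CPM in wildtype (SD, n = 4 each), with overlapping ranges. Col3a1, the chain of the homotrimeric type III collagen of loose interstitium, measured 1996, 2401, 2108 and 2138 CPM across knockout libraries 1 to 4 and 2110, 1941, 2273 and 1988 CPM across wildtype libraries 1 to 4. Knockout 2 was highest and wildtype 2 lowest, and the groups overlapped. The log2 fold change was 0.06 ± 0.08 (SE), and the 95% confidence interval of the fold ran from 0.920 to 1.17.

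Type I collagen is built from a pair of Col1a1 chains and a Col1a2 chain and is the main load-bearing fibril of stroma. Col1a1 measured 1767, 2064, 1866 and 1884 CPM across knockout libraries 1 to 4 and 1654, 1705, 2070 and 1573 CPM across wildtype libraries 1 to 4. The groups overlapped: wildtype 3 held the highest value of all libraries, while the other wildtype values lay below every knockout value. Wildtype 3 and knockout 2, both high in Xist, were each the highest of their group. The log2 fold change of Col1a1 was 0.11 ± 0.09 (SE), with a 95% interval of -0.09 to 0.32. Its adjusted p was 0.92 by edgeR's quasi-likelihood test. Col1a2 measured 1616, 1887, 1867 and 1782 CPM across knockout libraries 1 to 4 and 1752, 1680, 1834 and 1717 CPM across wildtype libraries 1 to 4. Its groups overlapped throughout, with a log2 fold change of 0.03 ± 0.07 (SE).

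Col5a1, a chain of the type V collagen that nucleates type I fibrils, measured 234, 288, 241 and 260 CPM across knockout libraries 1 to 4 and 248, 245, 274.5 and 243 CPM across wildtype libraries 1 to 4. The groups overlapped, with a log2 fold change of 0.02 ± 0.08 (SE). Its partner chain Col5a2, a neighbour of Col3a1 on chromosome 1 at a distance of 24614 bases, had a log2 fold change of -0.05, and the third chain Col5a3 one of 0.17. Col27a1, a fibrillar chain known from cartilage, was at a mean of 17.7 TPM with a log2 fold change of 0.07. The cartilage fibril chains Col2a1, Col11a1 and Col11a2 and the minor chain Col24a1 were at means of 0.411, 1.40, 0.967 and 0.893 TPM. Their estimates were -0.47, -0.10, 0.44 and 0.22, and the interval of each included 0. Col11a2 varied most among the wildtype libraries, with 1.46, 7.22, 6.29 and 1.49 CPM in wildtype 1 to 4.

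The basement membrane collagens had a median log2 fold change of -0.04, with 1 positive and 4 negative estimates, all within 0.2 of no difference. Without knockout 3 the median was 0.00070. Their summed level was 4932 ± 323 CPM in knockout against 5117 ± 200 CPM in wildtype (SD, n = 4 each). Col4a1 measured 2486, 2578, 2201 and 2292 CPM across knockout libraries 1 to 4 and 2313, 2379, 2493 and 2634 CPM across wildtype libraries 1 to 4. Col4a2 measured 1540, 1539, 1326 and 1513 CPM across knockout libraries 1 to 4 and 1465, 1544, 1511 and 1599 CPM across wildtype libraries 1 to 4. In both genes knockout 3 was the lowest and wildtype 4 the highest library, and the groups overlapped. The log2 fold changes were -0.04 ± 0.07 and -0.05 ± 0.07 (SE).

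Col18a1, the source of endostatin and a heparan sulfate-bearing collagen of epithelial and vascular basement membranes, measured 659, 626, 554 and 600 CPM across knockout libraries 1 to 4 and 649, 675, 711 and 675 CPM across wildtype libraries 1 to 4. Only knockout 1 reached into the wildtype range. The log2 fold change was -0.15 ± 0.07 (SE), with an adjusted p of 0.814 by edgeR's quasi-likelihood test. Col15a1, its relative at the interstitial face of basement membranes, measured 376, 467, 401 and 444 CPM across knockout libraries 1 to 4 and 450, 382, 446 and 417 CPM across wildtype libraries 1 to 4. The groups overlapped fully, with a log2 fold change of -0.01 ± 0.09 (SE). Col4a6, a chain of the type IV network found in collecting duct and capsule, was weaker, with 19.4 to 40.9 CPM in knockout and 28.4 to 35.2 CPM in wildtype and a log2 fold change of 0.04 ± 0.19 (SE).

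The other collagens had a median log2 fold change of -0.04, with 9 positive and 12 negative estimates among 21. The median was 0.0025 without wildtype 1 and 0.0032 without wildtype 3. Their summed TPM was 248 to 291 in knockout and 327 to 355 in wildtype, without overlap, whereas their summed CPM, 1316 ± 102 in knockout against 1391 ± 53.7 in wildtype (SD, n = 4 each), overlapped. As a share of all collagen TPM they took 14.9 to 16.0% in knockout and 17.0 to 18.1% in wildtype. The fibrillar share was 54.6 ± 1.52% and 51.9 ± 1.35%, and the basement membrane share 29.9 ± 1.20% and 30.7 ± 1.33% (SD, n = 4 each), both with overlapping ranges. Most of the gap in TPM lay in Col26a1, with means of 56.7 TPM in knockout and 88.5 TPM in wildtype, and in Col6a3, with 39.5 and 54.2 TPM. Both are genes of short implied length, which weigh more in TPM than in CPM. The TPM scale also shifted the comparison: on log2(TPM + 1) values the median of all genes was -0.11, and -0.14 with a pseudocount of 0.1. Knockout 2 had the highest summed collagen CPM of all libraries (13749) but the lowest summed collagen TPM (1552). How much of the shift rested on this library was not tested.

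Col6a3, the largest chain of type VI collagen and the one that carries the endotrophin fragment, measured 184, 223, 193 and 198 CPM across knockout libraries 1 to 4. It stood at 233, 240, 284 and 235 CPM across wildtype libraries 1 to 4. All 4 knockout values were lower than the lowest wildtype value, and wildtype 3 stood above the rest. The log2 fold change was -0.31 ± 0.09 (SE), and the 95% interval of the fold ran from 0.705 to 0.918. The gene did not pass the threshold over all genes, with an adjusted p of 0.423 by edgeR's quasi-likelihood test (Benjamini-Hochberg) and 0.0973 by DESeq2. Without wildtype 3 the log2 fold change was -0.24, and without both libraries high in Xist it was -0.30.

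The estimates of the partner chains lay close to 0. Col6a1 measured 216, 276, 239 and 233 CPM across knockout libraries 1 to 4 and 233, 220, 235 and 235 CPM across wildtype libraries 1 to 4, with a log2 fold change of 0.06 ± 0.08 (SE) and overlapping groups. Col6a2 ranged from 203 to 267 CPM in knockout and from 205 to 234 CPM in wildtype, with a log2 fold change of 0.07 ± 0.09 (SE). The ratio of Col6a3 to Col6a1 TPM was 1.42, 1.35, 1.35 and 1.42 across knockout libraries 1 to 4 and 1.67, 1.82, 2.01 and 1.67 across wildtype libraries 1 to 4. All knockout ratios were lower, with a difference of -0.37 on the log2 scale. The exact two-sided permutation test gave p = 0.0286, the smallest value that 4 against 4 libraries allow, and 0.171 after Benjamini-Hochberg adjustment over the 6 ratios. It therefore failed the correction, which 1 ratio at the smallest p cannot pass on its own.

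**Figure D4:**
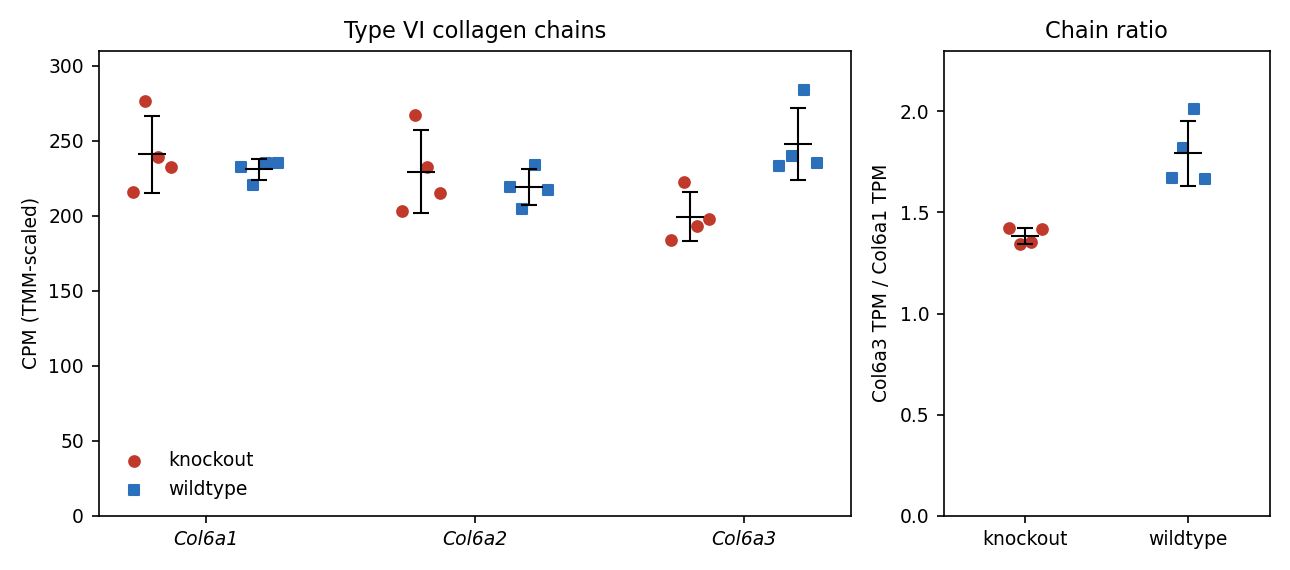
Left, CPM of the type VI chains Col6a1, Col6a2 and Col6a3 in each library (knockout circles, wildtype squares, bars are mean and SD, n = 4). Right, ratio of Col6a3 to Col6a1 TPM in each library. The groups overlap for Col6a1 and Col6a2 and separate for Col6a3 and for the ratio, which is 1.35 to 1.42 in knockout and 1.67 to 2.01 in wildtype.

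The remaining 5 ratios overlapped between groups. Col4a1 to Col4a2, the chains encoded head to head at the overlap printed above, stayed between 1.40 and 1.55 in all libraries, with a log2 difference of 0.01 (exact permutation p = 0.8, adjusted 0.914). Col6a1 to Col6a2 stayed between 0.978 and 1.05, with a difference of -0.01 (exact permutation p = 0.914). Col1a1 to Col1a2 ranged from 1.23 to 1.51, with a difference of 0.09 (exact permutation p = 0.286, adjusted 0.6). Col3a1 to Col1a1 differed by -0.06 and Col5a1 to Col5a2 by 0.07 (exact permutation p = 0.343 and 0.4). Where implied lengths are short, as for Col3a1 and Col6a3, the absolute ratio depends on the transcripts used. In the comparison between groups, a length that is the same in all libraries cancels. Whether transcript usage differed between groups was not tested, since the files hold no separate information on it.

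Col23a1, a transmembrane collagen, measured 20.1, 15.0, 12.8 and 17.0 CPM across knockout libraries 1 to 4 and 10.8, 12.8, 12.0 and 12.3 CPM across wildtype libraries 1 to 4. Every knockout library lay above every wildtype library, though knockout 3 and wildtype 2 were almost equal. The log2 fold change was 0.44 ± 0.14 (SE), with an adjusted p of 0.590 by edgeR's quasi-likelihood test and 0.300 by DESeq2. Col26a1, an EMI domain collagen first described in testis and ovary, measured 90.2, 109, 54.4 and 66.1 CPM across knockout libraries 1 to 4 and 101, 121, 102 and 120 CPM across wildtype libraries 1 to 4. The knockout libraries spread over a wide range and knockout 2 reached into the wildtype values. Its log2 fold change was -0.47 ± 0.20 (SE), with an adjusted p of 0.775 by edgeR's quasi-likelihood test.

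The fibril-associated collagens bridge fibrils to other matrix. Col12a1 measured 98.5, 103, 109 and 92.7 CPM across knockout libraries 1 to 4 and 120, 122, 112 and 98.3 CPM across wildtype libraries 1 to 4. Wildtype 4 lay among the knockout values, and the log2 fold change was -0.17 ± 0.09 (SE). Col16a1 measured 160, 138, 155 and 157 CPM across knockout libraries 1 to 4 and 157, 159, 190 and 123 CPM across wildtype libraries 1 to 4. Wildtype held both the highest and the lowest value, and the log2 fold change was -0.04 ± 0.12 (SE). Col14a1, at a mean of 25.3 TPM, had a log2 fold change of 0.02 and Col9a2 one of -0.09.

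Col6a5, a gene in a tandem group with Col6a4 and Col6a6 on chromosome 9, measured 10.6, 9.95, 10.7 and 9.76 CPM across knockout libraries 1 to 4 and 6.27, 8.02, 4.18 and 11.1 CPM across wildtype libraries 1 to 4. The knockout libraries were alike, and wildtype 4 exceeded all of them. The log2 fold change was 0.47 ± 0.25 (SE), with an adjusted p of 0.842 by edgeR's quasi-likelihood test. Without wildtype 4 it was 0.74 and without wildtype 3 it was 0.28. Its neighbours Col6a4 and Col6a6 had log2 fold changes of 0.13 and 0.08. These chains are close relatives, and the files do not say how reads shared between them were assigned.

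Anchoring fibril collagen Col7a1 had a log2 fold change of -0.17, and the network-forming chains Col8a1 and Col8a2 had -0.19 and -0.03. The transmembrane collagens Col13a1 and Col25a1 had -0.29 and 0.08. Col9a3, Col20a1 and Col22a1 had 0.42, -0.09 and -0.60, each with an interval that included 0. Col28a1 had the lowest estimate of all, -2.05 ± 1.20 (SE), and it rested on 1 library. It measured 14.2 CPM in wildtype 4 against 0.468 to 1.18 CPM in the other wildtype libraries and 0.276 to 1.69 CPM in knockout. Without wildtype 4 the log2 fold change was 0.38. Col17a1, a hemidesmosomal collagen, was tested but had a mean of 0.997 CPM. Col10a1, Col19a1 and Col9a1 were too weak to be tested, with 0 to 9, 1 to 7 and 0 to 8 counts per library.

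The genes that modify and fold collagen chains were next compared. Of 19 tested, 6 had positive and 13 negative estimates with a median log2 fold change of -0.06, and 0 passed edgeR's threshold, while 3 had an unadjusted p under 0.05 (6.18% of all genes) and 1 passed with DESeq2 (0.788% of all genes). The gene that passed with DESeq2 was Colgalt2, which encodes a galactosyltransferase of collagen hydroxylysines. It measured 13.8, 11.7, 12.4 and 14.5 CPM across knockout libraries 1 to 4 and 18.8, 21.6, 18.0 and 24.5 CPM across wildtype libraries 1 to 4, so that the groups did not overlap. The log2 fold change was -0.66 ± 0.13 (SE), with an adjusted p of 0.149 by edgeR's quasi-likelihood test and 0.00189 by DESeq2. Fkbp10, a prolyl isomerase of the collagen-folding machinery, also did not overlap (75.0 to 89.8 CPM against 90.3 to 98.9 CPM), with a log2 fold change of -0.23 ± 0.08 (SE) and an adjusted p of 0.622 by edgeR's quasi-likelihood test. With Colgalt1, also lower in knockout, 3 of the 19 genes did not overlap, beside 4.03% of all genes. The third gene at an unadjusted p under 0.05, P4ha3, a catalytic subunit of prolyl 4-hydroxylase, had the opposite sign, 0.99 ± 0.34 (SE), at no more than 2.07 CPM in any library and with overlapping groups. P4hb, the other subunit of prolyl 4-hydroxylase and the strongest gene of this list at a mean of 613 TPM, had a log2 fold change of -0.15 ± 0.11 (SE) with overlapping groups.

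Of 13 genes for propeptide cleavage and cross-linking, 4 had positive and 9 negative estimates with a median of -0.10, and 0 passed with edgeR or DESeq2, with 1 at an unadjusted p under 0.05 (6.18% of all genes). The lysyl oxidase genes Loxl1 and Loxl2 had log2 fold changes of -0.22 ± 0.09 and -0.17 ± 0.08 (SE). Pcolce, an enhancer of procollagen trimming, had -0.14 ± 0.08 (SE). In these genes the groups overlapped. Among 15 genes of fibril-associated matrix, 6 were positive and 9 negative with a median of -0.02, and 0 passed with either tool, with 3 at an unadjusted p under 0.05 (6.18% of all genes): Fbln2, Eln and Lum. Fbln2 had a log2 fold change of -0.30 ± 0.09 and Lum, a proteoglycan that regulates fibril width, 0.30 ± 0.11 (SE), both without overlap of the groups. With Fmod, lower in knockout, 3 of the 15 genes did not overlap, beside 4.03% of all genes. Eln, which encodes elastin, had -0.22 ± 0.10 (SE) with overlapping groups. Sparc, a collagen-binding glycoprotein and the strongest of the list at 393 TPM, had -0.04 ± 0.07 (SE).

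The laminins, nidogens and proteoglycans share basement membranes with type IV collagen. Of 14 such genes, 3 had positive and 11 negative estimates with a median log2 fold change of -0.05, and 0 passed edgeR's threshold, with 3 at an unadjusted p under 0.05 (6.18% of all genes) and 1 called by DESeq2 (0.788% of all genes). The gene called by DESeq2 was Lamb1, which encodes a laminin beta chain. It measured 614, 538.5, 555 and 535 CPM across knockout libraries 1 to 4 and 681, 674, 677.5 and 693 CPM across wildtype libraries 1 to 4. The groups did not overlap, and the log2 fold change was -0.28 ± 0.06 (SE), with an adjusted p of 0.280 by edgeR's quasi-likelihood test and 0.00291 by DESeq2. Lama5, the laminin alpha chain of mature epithelial basement membranes, had -0.16 ± 0.07 (SE), also without overlap. In the list, 3 of the 14 genes did not overlap, beside 4.03% of all genes. The list summed to between 3399 and 3575 CPM across knockout libraries, below the 3690 to 3842 CPM of wildtype. This gap depended on Lamb1. Without the Lamb1 values, the sum of knockout 2 was higher than that of wildtype 1, so the groups overlapped. The summed basement membrane collagens, 4502 to 5244 CPM for knockout against 4904 to 5356 CPM for wildtype, also overlapped. Whether laminins and collagens differed from each other in their response was not tested.

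Of 9 collagen receptor genes, 5 had positive and 4 negative estimates with a median of 0.05. Itgb1, the integrin beta chain common to the collagen-binding integrins, had a log2 fold change of -0.13 ± 0.06 (SE), and Itga10 had 0.32 ± 0.21 (SE). Of 9 tested genes for collagen degradation, 5 were positive and 4 negative with a median of 0.05. Timp3, a matrix-bound inhibitor of metalloproteinases, had 0.12 ± 0.06 and the collagenase gene Mmp13 -0.84 ± 0.43 (SE) at no more than 1.16 CPM in any library. In both lists 0 genes passed with edgeR or DESeq2, and 0 had an unadjusted p under 0.05.

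Markers of the cells that make collagens, and of tissues that can adhere to a dissected kidney, were compared beside these values. The 9 stromal and fibroblast markers had 5 positive and 4 negative estimates, a median log2 fold change of 0.01, and summed to 741 to 808 CPM in knockout and 760 to 794 CPM in wildtype. Tcf21, the strongest of them at 81.5 TPM, had a log2 fold change of -0.01 ± 0.08 and Pdgfra, a fibroblast receptor, 0.13 ± 0.08 (SE), both with overlapping groups. In contrast, Foxd1, a gene of stromal progenitors, had -0.59 ± 0.15 and Pdgfrb, a receptor of stroma and pericytes, -0.21 ± 0.06 (SE). Their adjusted p were 0.344 and 0.547 by edgeR's quasi-likelihood test. In both genes the groups did not overlap (2 of 9 markers, beside 4.03% of all genes). Whole-kidney RNA does not show which cells held the Foxd1 and Tcf21 transcripts, in the stroma or elsewhere. The 9 smooth muscle, pericyte and mesangial markers had 2 positive and 7 negative estimates and a median of -0.08. They summed to 1225 to 1373 CPM in knockout and 1278 to 1423 CPM in wildtype. Itga8 had -0.37 ± 0.08 (SE), with an adjusted p of 0.261 by edgeR's quasi-likelihood test and 0.00809 by DESeq2. Of the 9, it alone was called by DESeq2 (0.788% of all genes), and it alone did not overlap (4.03% of all genes). The 10 endothelial markers had 1 positive and 9 negative estimates, a median of -0.15 and sums of 1214 to 1365 CPM in knockout and 1356 to 1456 CPM in wildtype. Among them Flt1 and Plvap, both lower in knockout, had an unadjusted p under 0.05 by edgeR's quasi-likelihood test (6.18% of all genes). Only Plvap did not overlap (4.03% of all genes). The part of these markers in the values of Col6a3, Col18a1 and Lamb1 was not tested.

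The 6 adipose markers summed to 234 to 534 CPM in knockout and 250.2 to 417 CPM in wildtype, with Fabp4 the strongest, while Lep lay under 0.1 TPM. Adrenal markers summed to 4.15 to 6.90 and 5.48 to 6.34 CPM, with 3 of 6 under 0.1 TPM. Cartilage markers summed to 2.14 to 3.17 and 2.19 to 2.51 CPM, with 3 of 5 under 0.1 TPM, and skeletal muscle markers to 2.83 to 3.52 and 2.27 to 3.27 CPM, with 3 of 6 under 0.1 TPM. The 7 macrophage markers summed to 118 to 141 and 125 to 135 CPM, the 6 urothelial markers to 53.7 to 60.6 and 49.3 to 58.3 CPM, and the 7 proximal tubule markers, which check the tissue label, to 3903 to 4150 and 3906 to 4116 CPM. In each of these lists the summed levels of the groups overlapped. Single genes without overlap were Csf1r and Slc5a2, lower in knockout, and Slc22a6 and Acta1, higher in knockout, beside 4.03% of all genes. Collecting duct markers summed to 613 to 1022 CPM in knockout and 671 to 728 CPM in wildtype, with Aqp2 at 478 CPM in knockout 1 and 149 to 202 CPM in the others.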

How the data were processed

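The authors deposited estimated counts per gene, rounded to whole numbers, and TPM per gene. The submitters' processing notes name Salmon, DESeq2 1.14.1 and the mm10 build, and per the labels' protocols a directional library kit was used on total RNA. No annotation release is named there. The count table names no genes. Its rows were matched by position to the 47729 unique gene IDs beside the TPM values. For 13251 genes with 50 or more counts throughout, log2 count over TPM varied between libraries with an SD of at most 0.00862 (31 collagens, at most 0.00609). All pairs of libraries differed by more than sampling noise (lowest chi-square over its degrees of freedom, 10.3).

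Depth was 14457760 to 20741076 counts per library. Counts were compared with edgeR 4.0.16 in R 4.3.3 (quasi-likelihood test, filterByExpr, TMM factors, robust, two-sided) over 18548 genes with Benjamini-Hochberg adjustment (threshold 0.05). SE is the absolute log2 fold change over the square root of F. The script was tested on simulated data. Levels between genes are given in TPM or per kb of the longest transcript in GENCODE (GRCm38, which mm10 denotes). Promoter sequences are from RefSeq (GRCm38.p6).

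The collagens and all gene lists were chosen with earlier results of these data known. Values in every library are given for the 4 collagens with the highest mean TPM of each class and the 6 with the smallest p, among genes whose mean reached 1 CPM, and for any past the threshold. From each list of matrix genes the strongest gene and those past the threshold, or the 2 with the smallest p, are named. Markers are given by counts and sums. A gene so picked from the basement membrane partners is not reported here. Any other gene was chosen after its values were seen. Chain ratios were compared by an exact permutation test over 70 relabelings. Alternatives were other scalings, filters and tools (DESeq2 1.42.0, limma 3.58.1), log2 TPM values, a replicate block, other cuts and each library left out.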

Additional observations from a re-analysis of the deposited data

Results flagged for a closer look

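In 8 of 88 sets of 4 libraries (CPM of each collagen and chain ratios, by group), 1 library stood apart from the other 3 by Dixon's criterion. Chance marks about 1 in 20 sets, or 4.4 of 88. Wildtype 3, a library high in Xist, was the highest in 3 of the sets. It had 284 CPM of Col6a3 against 233 to 240 in the other wildtype libraries, 274.5 CPM of Col5a1 against 243 to 248, and 1.82 CPM of Col17a1 against 0.334 to 0.548. In Col28a1, wildtype 4 had 14.2 CPM against 0.468 to 1.18. In Col20a1, knockout 1 had 6.66 CPM against 3.78 to 4.21 and wildtype 2 had 7.15 CPM against 4.09 to 4.47. In Col4a2, knockout 3 had 1326 CPM against 1513 to 1540. The ratio of Col3a1 to Col1a1 TPM was 2.20 in knockout 2 and 2.14 to 2.15 in the other knockout libraries. The cause of these values was not tested.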

How the results depend on the processing

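The count of collagens past the threshold was 0 under every other scaling, filter and tool, at an adjusted p under 0.1, without each library in turn and without the libraries high in Xist, and 3 at an unadjusted p under 0.05. With the replicate block it was also 0 (10 of all genes called, against 15). Same-numbered libraries did not deviate together (correlations of 0.0176, -0.081, 0.0363 and 0.0138), so the numbers were not taken to pair them, and the block moved no call for the collagens. On log2 TPM values with pseudocounts of 0.1 and 1, the class medians became -0.089 and -0.089 (fibrillar), -0.18 and -0.18 (basement membrane) and -0.18 and -0.13 (other), which is to be read against the shift of all genes. The same values turned the sign of Col3a1 (-0.089 with both), Col1a1 (-0.024 with both), Col1a2 (-0.11 with both), Col5a1 (-0.13 and -0.12) and Col6a1 (-0.089 and -0.086).

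Estimates near 0 changed sign elsewhere. Total-count scaling gave Col5a1 -0.00053 and upper-quartile scaling gave Col15a1 0.0090. Without the libraries high in Xist, Col5a1 had -0.0034, Col16a1 0.11 and Col6a1 -0.0019. Leaving out each library in turn gave -0.046 to 0.059 for Col5a1, -0.059 to 0.045 for Col15a1, -0.070 to 0.00070 for Col4a2, -0.14 to 0.061 for Col16a1 and -0.012 to 0.11 for Col6a1. The class medians ranged from 0.0069 to 0.092 (fibrillar), -0.069 to 0.00070 (basement membrane) and -0.072 to 0.0032 (other). Leaving out libraries gave log2 differences of -0.0089 to 0.041 for the ratio of Col4a1 to Col4a2 and -0.029 to 0.0063 for that of Col6a1 to Col6a2. Col6a3 kept its direction under all alternatives, with -0.37 to -0.24 when 1 library was left out and an adjusted p of 0.0973 to 0.715 over all of them, and its ratio to Col6a1 stayed between -0.40 and -0.31. Of 425 alternative values, 386 kept their direction and their side of the threshold, or moved by less than the spread between libraries. The 3 collagens that were not tested had at most 9 counts in any library, and no difference in them was detectable at this depth.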
